A study of Homo sapiens with 6 samples.

Results

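The c-Jun N-terminal kinase (JNK) cascade was described in MDA-MB231 breast cancer cells with and without a knockdown of the receptor Ror1. The cascade was represented by 10 genes, which were chosen by symbol for their place in the pathway. No value was part of this rule, but earlier results of these data were known when it was set. The genes were the JNK genes MAPK8, MAPK9 and MAPK10, and the kinases that activate them, MAP2K4 and MAP2K7. With them came the upstream kinases MAP3K1, MAP3K7 and MAP3K11, and the scaffolds MAPK8IP3 and SPAG9. All 10 were found among the 57445 genes of the deposited table, each under 1 Ensembl identifier. MDA-MB231 is an established human triple-negative breast cancer line. Its cells were transduced with pGIPZ lentiviral vectors at a multiplicity of infection of 5 and kept under puromycin at 2 µg/ml, so that both conditions carry a vector and the selection. The vector held a non-silencing shRNA (shCTL, 3 libraries) or an shRNA against ROR1 (shRor1, 3 libraries). A single targeting sequence was used, and nothing states whether the libraries of a condition came from separate cultures, so that p-values measure the spread between libraries, which may be technical. The sources differ on the control, which the labels call an empty vector and the study an shRNA control, and on the RNA, given as polyA in the labels and as total RNA for the library kit. The header of the control columns holds the word DMSO, which the labels do not mention, so that a solvent and the shRNA cannot be told apart. Columns of a condition carry no replicate number and are named here by their order, as shCTL 1 to 3 and shRor1 1 to 3.

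JNKs are the stress-activated branch of the mitogen-activated protein kinases. Signals pass from a MAP3K to a MAP2K, which phosphorylates the threonine and the tyrosine of the Thr-Pro-Tyr motif in the activation loop of a JNK, and scaffold proteins hold these kinases together. In non-canonical Wnt signaling, ligands such as Wnt5a act through Ror receptors and Dishevelled on this cascade, and active JNK phosphorylates c-Jun and other proteins with roles in cell movement. The cascade is switched by phosphorylation, which an mRNA level does not show, so the values below describe how much transcript of each kinase and scaffold the cells held. In RNA of a whole culture, fewer expressing cells and less RNA per cell cannot be told apart.

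The JNK paralogs are close relatives, and the reads had only 50 bases, so the coding bases around the activation loop are shown to make clear how far such a read can tell the genes apart. The sequences are from the GRCh37 reference with GENCODE 44 mapped to it, on the coding strand, and the capitals mark the codons of the Thr-Pro-Tyr motif.
MAPK8, exon 6, plus strand, chr10:49628270-49628326: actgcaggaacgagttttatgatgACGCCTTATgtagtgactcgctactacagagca
MAPK9, exon 6, minus strand, chr5:179676010-179676066: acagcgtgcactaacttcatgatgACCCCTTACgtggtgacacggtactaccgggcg
MAPK10, exon 8, minus strand, chr4:87022242-87022298: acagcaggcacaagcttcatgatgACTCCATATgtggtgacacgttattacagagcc
Over these 57 bases MAPK8 differed from MAPK9 at 16 positions, and MAPK10 differed from either at 12. Over the aligned coding sequence the identity was 74.8% between MAPK8 and MAPK9, 78.7% between MAPK8 and MAPK10 and 76.0% between MAPK9 and MAPK10. None of the 5760 windows of 50 bases in the canonical MAPK8 transcript occurred in a transcript of another gene, and the same held for the 4750 windows of MAPK9 and the 8686 of MAPK10. A read of these transcripts without mismatches thus belongs to 1 JNK gene.

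The equivalent stretch of the MAP2K genes is shown for the same reason, with the codons of the serine and the threonine that an upstream MAP3K phosphorylates in capitals.
MAP2K4, exon 7, plus strand, chr17:12016609-12016671: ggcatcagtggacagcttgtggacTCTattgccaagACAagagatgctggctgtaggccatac
MAP2K7, exon 7, plus strand, chr19:7975976-7976038: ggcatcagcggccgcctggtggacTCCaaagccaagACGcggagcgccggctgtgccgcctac
These 63 bases differed at 20 positions, and the coding sequences were 60.0% identical. The windows of MAP2K7 were free of copies, whereas 275 of the 3729 windows of MAP2K4 (7.38%) were shared with the pseudogene MAP2K4P1. The pseudogene was listed at 0.11 to 0.20 TPM. Among the other members, 28 of the 8227 windows of SPAG9 were shared with other genes, and those of MAP3K1, MAP3K7, MAP3K11 and MAPK8IP3 with none. Exons of another gene on the same strand overlapped no member. On the opposite strand exons of MAPK10 overlapped those of ARHGAP24 and PTPN13. MAPK8IP3 shared 32 bases with NME3 and 329 bases with ENSG00000261207, which had 0.63 to 2.11 TPM. MAP2K7 shared 262 bases with ENSG00000268149 and MAP3K1 shared 199 bases with ENSG00000237705, both below 1 TPM. The kit marked the strand, but whether the counting used it is not stated, and for MAPK10, far below both neighbours in level, reads of the other strand cannot be told apart from its own if it did not.

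The targeted gene was examined first. ROR1 was measured at 15.4, 13.5 and 20.6 TPM in shCTL, against 9.34, 11.9 and 14.9 TPM in shRor1. The ranges overlapped, and the means were 16.5 ± 3.65 and 12.04 ± 2.76 TPM (SD, n = 3 each, log2 fold change -0.43, standard error 0.20, adjusted p = 0.984 from limma). The knockdown itself was thus not called at the transcript level, where the unadjusted p from limma was 0.0649. In the 16 alternative fits the log2 fold change of ROR1 stayed below 0, from -0.58 to -0.26. Unadjusted p from limma ran from 0.0151 to 0.207 there, and ROR1 was called in none. The paper showed the knockdown on Ror1 protein by western blot, a different measure. By the same method it reported lower RhoA protein and less phosphorylated JNK in the knockdown cells. The transcript levels given here do not measure either. Every comparison below is one between the libraries as labelled. The cells carried the markers of the line, with summed TPM of 4107 to 4339 in shCTL and 4163 to 4592 in shRor1 over VIM, CD44, AXL, CAV1, MSN and ZEB1, while ESR1 and PGR and the immune markers PTPRC, CD3E and CD14 were below 1 TPM in all 6 libraries. Other luminal markers were present, mostly KRT19, and the summed luminal list ran from 101 to 141 TPM in shCTL and from 105 to 156 TPM in shRor1. Between 16036 and 17033 genes reached 1 TPM per library.

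MAPK8, which encodes JNK1, had the highest level of the 10 genes, followed by SPAG9 and MAPK9, while MAPK10, which encodes the JNK3 known from brain and heart, was below 1 TPM in all libraries. TPM takes gene length and the size of a library into account, so that levels of different genes can be set side by side. In shCTL the means ran from 102 ± 4.82 TPM for MAPK8 and 71.6 ± 5.85 TPM for SPAG9 through 58.9 ± 3.30 TPM for MAPK9 to 6.23 ± 0.35 TPM for MAP3K1 and 0.317 ± 0.050 TPM for MAPK10 (SD, n = 3 for each). The order of the 10 means was the same in shRor1. Between neighbours in this order the control ranges were apart for 6 of the 9 pairs, and they overlapped for MAPK8IP3 with MAP3K11, for MAP2K7 with MAP3K7 and for MAP3K7 with MAP2K4. In shRor1, MAPK8 and SPAG9 overlapped as well. Together the 10 genes reached 369 to 413 TPM in shCTL and 391 to 434 TPM in shRor1.

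**Figure D1:**
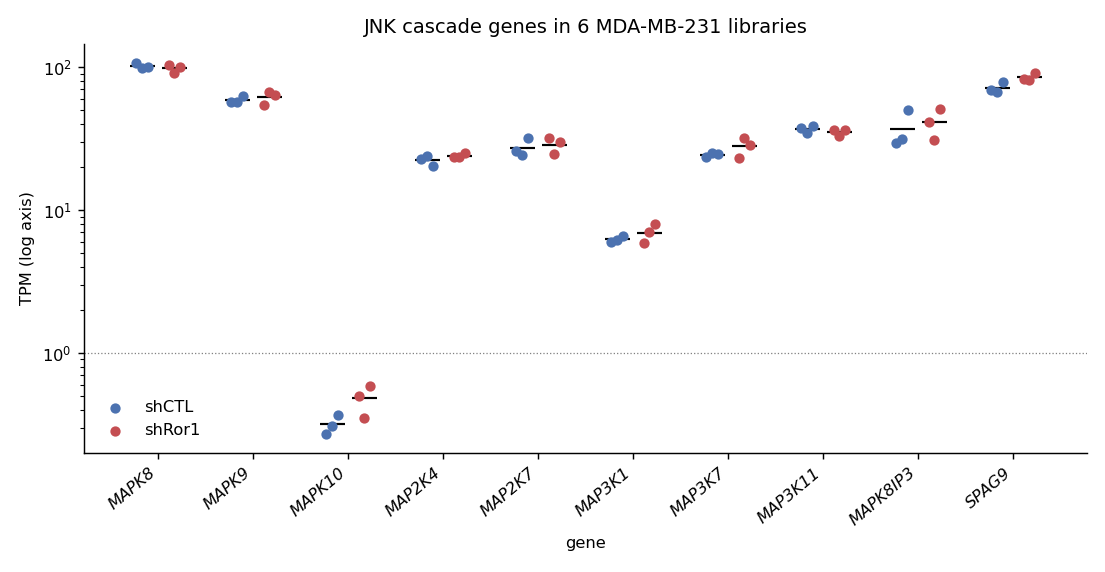
TPM (log axis) of the 10 JNK cascade genes in each of the 3 shCTL (blue) and 3 shRor1 (red) libraries, with black bars at the group means and a dotted line at 1 TPM. MAPK8 lies highest at about 100 TPM, MAPK10 below 1 TPM, and the colours separate only for SPAG9.

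The comparison of shRor1 with shCTL asked whether the knockdown of Ror1 was accompanied by a change in the transcripts of the cascade. None of the 9 members tested was called: the adjusted p from limma was from 0.984 to 0.986, on log2(TPM + 1) over the 16554 genes that reached 1 TPM in 3 or more libraries. The background in this comparison was 0% as well, with 472 genes at an unadjusted p below 0.05 (2.85%, of which 2.31% higher and 0.544% lower in shRor1). Among the 9 members, 1 was at that unadjusted level, SPAG9. The groups did not overlap for 1 member, again SPAG9, which was higher. Among all tested genes the groups did not overlap for 7.78%, with 6.48% higher and 1.3% lower in shRor1. Log2 fold changes of the 9 members ran from -0.067 to 0.25, with 7 above 0 and a median of 0.10, beside 67.0% above 0 and a median of 0.054 over all tested genes. Of the 472 genes, 80.9% were higher in shRor1 on the deposited scale, whereas quantile normalization left 53.9% of such genes higher, so the tilt towards higher values depends on the scaling.

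**Figure D2:**
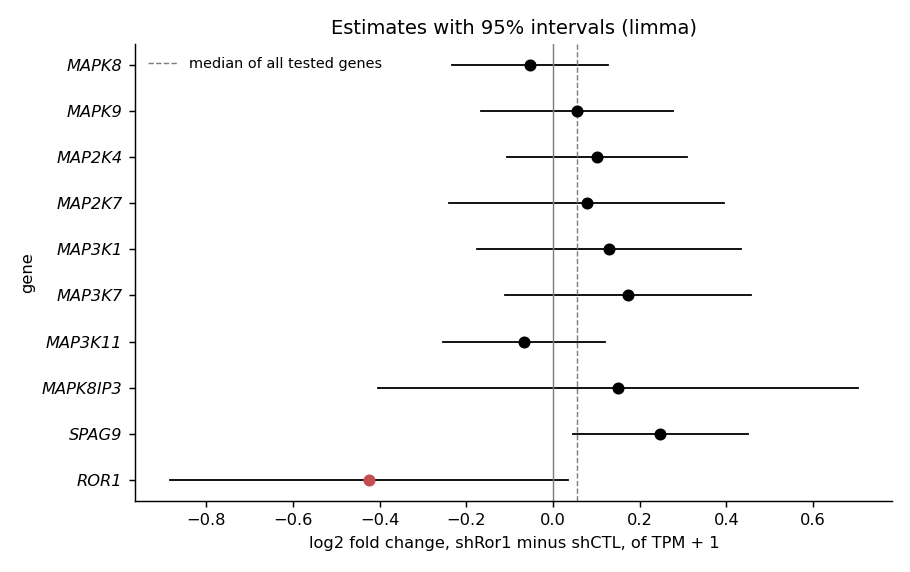
Log2 fold change of shRor1 against shCTL on the log2(TPM + 1) scale for the 9 tested cascade genes (black) and ROR1 (red), with 95% intervals from limma and a dashed line at the median of all tested genes, 0.054. The interval of SPAG9 lies above 0, from 0.046 to 0.45, and those of the other 8 cascade genes and of ROR1 include 0.

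On the deposited scale the means of MAPK8 and MAPK9 differed between conditions by less than the SD of either condition. MAPK8 (ENSG00000107643.11, chromosome 10 from 49514682 to 49647403, plus strand) had 108, 99.0 and 99.6 TPM in shCTL and 104, 91.2 and 100.1 TPM in shRor1. The highest value was in shCTL 1 and the lowest in shRor1 2, with the other 4 libraries between them. The log2 fold change was -0.052 with a 95% interval from -0.23 to 0.13 (standard error 0.077, adjusted p = 0.984 from limma), an interval of 0.851 to 1.09 on the linear scale. It was -0.11 with median ratio scaling and -0.14 with GC content removed, neither of which was called. MAPK9 encodes JNK2, the other broadly expressed JNK (ENSG00000050748.12, chromosome 5 from 179660143 to 179719099, minus strand). It had 57.1, 56.9 and 62.7 TPM in shCTL and 54.2, 66.5 and 63.7 TPM in shRor1. Its lowest and its highest value were both in shRor1, and the log2 fold change was 0.055 (95% interval -0.17 to 0.28, adjusted p = 0.986 from limma), a sign that turned with median ratio scaling (-0.0045).

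MAPK10 (ENSG00000109339.14, chromosome 4 from 86911160 to 87515778, minus strand) had values of 0.27, 0.31 and 0.37 TPM in shCTL, and of 0.50, 0.35 and 0.59 TPM in shRor1. Its groups overlapped, and it did not pass the filter on low values. In an exact permutation test the two-sided p was 0.2, where 3 libraries against 3 cannot go below 0.1.

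Summed over the JNK genes, the supply of transcript was 165, 156 and 163 TPM in shCTL and 159, 158 and 164 TPM in shRor1. The means of 161 ± 4.54 and 160.4 ± 3.48 TPM (SD, n = 3 each) differed by less than either SD (exact permutation test, two-sided p = 0.9). This depended on the scaling: after median ratio scaling the shRor1 mean was below that of shCTL by more, with a difference of -7.71 TPM (exact permutation test, two-sided p = 0.1, the lowest possible), against -0.907 TPM as deposited. MAPK8 provided 65.2%, 63.4% and 61.2% of this sum in shCTL and 65.6%, 57.7% and 60.9% in shRor1. A factor common to all genes of a library leaves such a share unchanged, while quantile normalization or removal of GC content need not. The share was lowest in shRor1 2, in which MAPK8 was at its lowest and MAPK9 at its highest, and the groups overlapped (exact permutation test, two-sided p = 0.6). MAPK10 provided 0.164% to 0.227% in shCTL and 0.222% to 0.359% in shRor1. In all 6 libraries JNK transcripts were therefore almost entirely those of MAPK8 and MAPK9, in a ratio of 1.37 to 1.92.

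Transcripts of the kinases that activate JNK were fewer than those of JNK. MAP2K4, the kinase MKK4, which can also activate p38 (ENSG00000065559.10, chromosome 17 from 11924146 to 12047147, plus strand), had 22.6, 23.8 and 20.4 TPM in shCTL and 23.5, 23.4 and 25.0 TPM in shRor1. MAP2K7, the kinase MKK7, which is specific for JNK (ENSG00000076984.13, chromosome 19 from 7968728 to 7979363, plus strand), had 25.7, 24.1 and 31.9 TPM in shCTL and 31.9, 24.6 and 29.7 TPM in shRor1. Neither pair of groups separated, although the values of MAP2K7 spread more widely within a condition than those of MAP2K4. Log2 fold changes were 0.10 for MAP2K4 (95% interval -0.11 to 0.31, adjusted p = 0.984 from limma) and 0.078 for MAP2K7 (95% interval -0.24 to 0.40, adjusted p = 0.986 from limma). Their sum was 49.5 ± 2.42 TPM in shCTL and 52.7 ± 4.07 TPM in shRor1 (SD, n = 3 each, exact permutation test, two-sided p = 0.3). MAP2K4 made up 45.2% ± 5.52 of it in shCTL and 45.6% ± 3.19 in shRor1 (SD, n = 3 each, exact permutation test, two-sided p = 1.0). The ratio of the summed TPM of the JNK genes to that of MAP2K4 and MAP2K7 was 3.26 ± 0.15 in shCTL and 3.06 ± 0.22 in shRor1 (SD, n = 3 each, exact permutation test, two-sided p = 0.3).

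Among the MAP3K members of the cascade, MAP3K11 was the most abundant and MAP3K1 the least, with ranges apart in both conditions. MAP3K11 encodes MLK3, a mixed-lineage kinase activated by Rac and Cdc42 (ENSG00000173327.3, chromosome 11 from 65365227 to 65382853, minus strand), and had 37.5, 34.8 and 38.4 TPM in shCTL and 36.3, 33.1 and 36.1 TPM in shRor1. It was the steadiest member, with a residual SD on the log2 scale of 0.073, at percentile 11.4 of all tested genes. Its log2 fold change was -0.067 (95% interval -0.25 to 0.12, adjusted p = 0.984 from limma).

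MAP3K7 encodes TAK1, the kinase that serves cytokine and TGF-β receptors (ENSG00000135341.13, chromosome 6 from 91223292 to 91296805, minus strand). Its values were 23.3, 25.2 and 24.7 TPM in shCTL and 23.2, 31.99 and 28.4 TPM in shRor1. Values of shRor1 2 and 3 lay above all controls, while shRor1 1 was the lowest of the 6. After SPAG9 its log2 fold change was the largest among the members, 0.17 with a 95% interval from -0.11 to 0.46 (adjusted p = 0.984 from limma), and it was 0.30 without shRor1 1 and 0.071 without shRor1 2. MAP3K1, or MEKK1, is a kinase that also carries ubiquitin ligase activity (ENSG00000095015.5, chromosome 5 from 56111376 to 56191979, plus strand), and had 5.94, 6.13 and 6.61 TPM in shCTL and 5.88, 6.96 and 7.99 TPM in shRor1. The same library, shRor1 1, was again the lowest of the 6, and the log2 fold change was 0.13 (95% interval -0.17 to 0.43, adjusted p = 0.984 from limma).

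Scaffolds gave both the only member without overlap and the most variable one. SPAG9 encodes JIP4, which binds JNK and p38 and links cargo to microtubule motors (ENSG00000008294.16, chromosome 17 from 49039535 to 49198229, minus strand). It had 69.1, 67.5 and 78.3 TPM in shCTL and 82.1, 81.7 and 91.6 TPM in shRor1. Each shRor1 library lay above each control. The means were 71.6 ± 5.85 and 85.1 ± 5.63 TPM (SD, n = 3 each), a ratio of 1.19 (two-sided exact permutation p = 0.1, which no such comparison can go below). On the log2 scale the difference was 0.25 (standard error 0.087, 95% interval 0.046 to 0.45, unadjusted p = 0.0225, adjusted p = 0.984 from limma), and it was not called. The difference stayed above 0 in all 16 alternative fits, from 0.17 to 0.31, with adjusted p from 0.461 to 1.00 and unadjusted p from 0.0104 to 0.0853. After median ratio scaling the groups were still apart, at 70.8 to 76.8 TPM in shCTL and 81.2 to 85.7 TPM in shRor1, and with GC content removed the log2 difference was 0.17 (unadjusted p = 0.0534).

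MAPK8IP3 encodes JIP3, a scaffold of JNK on kinesin-driven transport (ENSG00000138834.8, chromosome 16 from 1756167 to 1820352, plus strand), and had 29.7, 31.4 and 50.4 TPM in shCTL and 41.0, 30.9 and 51.2 TPM in shRor1. Libraries shCTL 3 and shRor1 3 were high, and shCTL 1, shCTL 2 and shRor1 2 were low, so that the spread ran within both conditions. The residual SD was 0.38 on the log2 scale, at percentile 92.4 of all tested genes. With a log2 fold change of 0.15 and a 95% interval from -0.40 to 0.70 (adjusted p = 0.984 from limma), this was the member about which the comparison says least, and the estimate was 0.38 without shCTL 3 and -0.021 without shRor1 3. The 2 scaffolds summed to 109 ± 17.3 TPM in shCTL and 126 ± 15.4 TPM in shRor1 (SD, n = 3 each, exact permutation test, two-sided p = 0.3). SPAG9 made up 66.3% ± 4.84 of this sum in shCTL and 67.8% ± 4.31 in shRor1 (SD, n = 3 each, exact permutation test, two-sided p = 0.7).

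**Figure D3:**
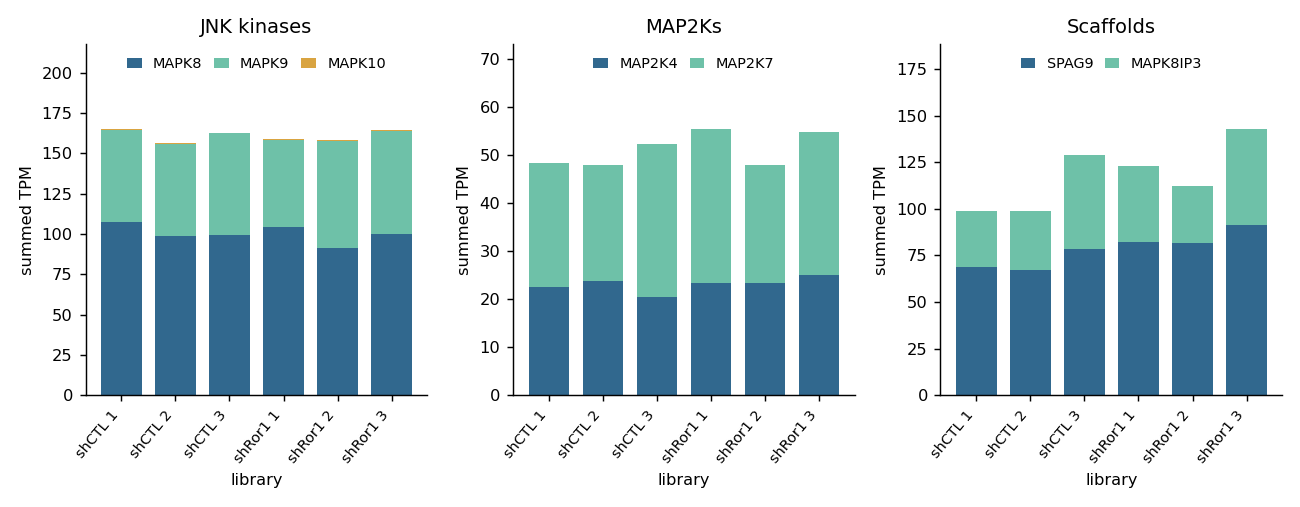
Summed TPM per library, from 0, of the JNK genes, of MAP2K4 and MAP2K7 and of the scaffolds, with each gene as a coloured part of the bar. JNK bars stay between 156 and 165 TPM with MAPK10 barely visible, while scaffold bars run from 98.7 to 143 TPM.

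Differences between some libraries of 1 condition moved with the GC content of the transcripts. Described here is the pair of each condition with the widest range over GC content, picked after the values were seen, while the medians of shCTL 2 minus shCTL 1 stayed between -0.045 and -0.025. The tested genes with an annotated transcript, 15066 in all, were divided into 5 equal groups by GC content. In the most GC-rich group (above 57.7%) were 3 members, namely MAP2K7 (62.6%), MAPK8IP3 (64.5%) and MAP3K11 (66.6%), and the other 6 tested members had 37.6% to 43.3%. From shRor1 1 to shRor1 2 the GC-rich members changed by -0.36 (MAP2K7), -0.40 (MAPK8IP3) and -0.13 (MAP3K11) in log2(TPM + 1). By contrast, MAP3K7 (0.45), MAPK9 (0.29) and MAP3K1 (0.21) were higher in shRor1 2, and SPAG9 (-0.0075), MAP2K4 (-0.0035) and MAPK8 (-0.19) were not. The median of this difference over all genes went from 0.14 in the group with the lowest GC content to -0.10 in the highest. From shCTL 2 to shCTL 3 the medians went from 0.013 to 0.20, and MAPK8IP3 (0.66), MAP2K7 (0.39) and MAP3K11 (0.14) were all higher in shCTL 3. Between conditions the median log2 fold change was 0.087 in the lowest group and 0.033 in the highest. The part of this trend in the values of single members was not tested beyond the fit with GC content removed, in which the 9 log2 fold changes ran from -0.14 for MAPK8 to 0.17 for SPAG9.

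**Figure D4:**
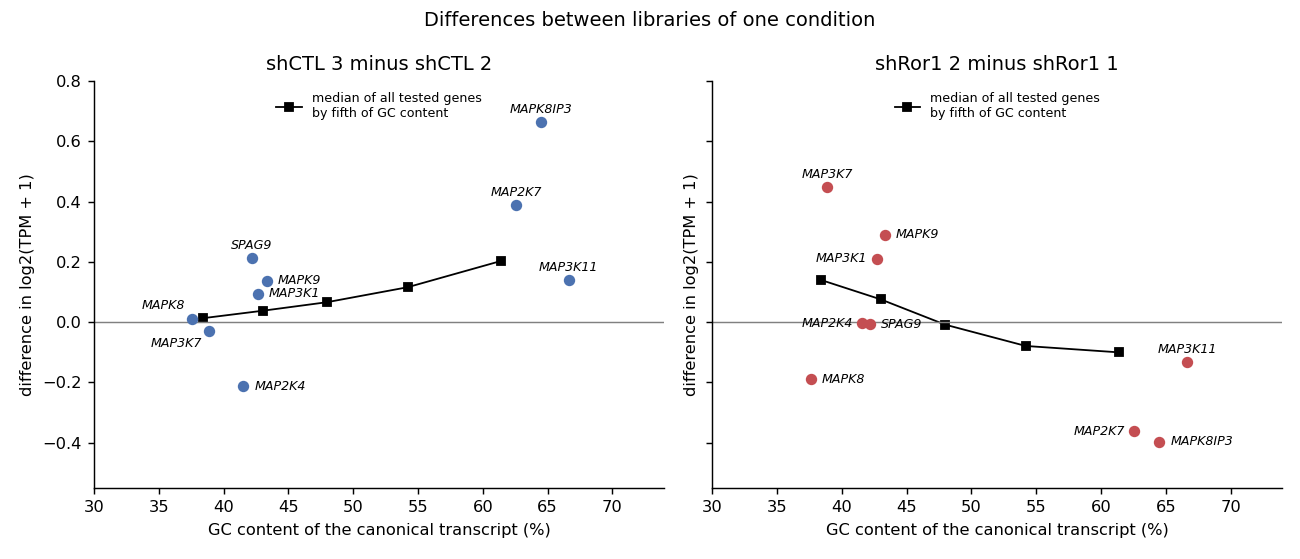
Difference in log2(TPM + 1) between libraries of the same condition (left shCTL 3 minus shCTL 2, right shRor1 2 minus shRor1 1) against the GC content of the canonical transcript in percent, for the 9 tested members (coloured points) and as medians of all tested genes in 5 equal groups by GC content (black squares). These are the pairs with the widest range of black squares in each condition, chosen after the values were seen. MAPK8IP3 and MAP2K7, with high GC content, lie above 0 on the left, at 0.66 and 0.39, and below 0 on the right, at -0.40 and -0.36, as the black squares of the highest group do.

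The JNK tier was set beside the p38 kinases. In shCTL the JNK sum of 161 ± 4.54 TPM lay below that of the p38 genes MAPK11 to MAPK14, 203 ± 16.2 TPM (SD, n = 3 each), and their ranges did not overlap. The order was the same in shRor1, at 160.4 ± 3.48 and 217 ± 30.6 TPM. One tier up, MAP2K4 and MAP2K7 summed to 49.5 ± 2.42 TPM in shCTL against 62.6 ± 2.96 TPM for the p38 activators MAP2K3 and MAP2K6 and 242 ± 9.11 TPM for the ERK activators MAP2K1 and MAP2K2 (SD, n = 3 each). The dual-function MAP2K4 was counted only with the JNK tier. None of the 6 genes of the p38 list was called, and their median log2 fold change was 0.043, but -0.017 with median ratio scaling, -0.013 without shCTL 2 and -0.032 without shRor1 3.

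Beyond the members, 9 lists held 72 genes that surround the cascade, and 68 passed the filter. None was called by limma, and 0 were at an unadjusted p below 0.05, the smallest being 0.0879. Log2 fold changes were above 0 for 45 of the 68 genes (66.2%, beside 67.0% of all tested genes), with a median of 0.048. The groups were apart for 3 genes, all higher in shRor1, where the background was 6.48%. These were MAP4K5 (62.3 ± 2.77 against 68.9 ± 3.19 TPM), the adaptor CRKL (38.7 ± 1.71 against 41.1 ± 1.00 TPM) and the p38 kinase MAPK14 (82.4 ± 1.26 against 86.1 ± 1.97 TPM, SD, n = 3 for each), named after their values were seen.

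Upstream, a list of 14 further MAP3K genes, which did not hold the whole family (MAP3K8, MAP3K14 and MAP3K15 were not on it), had a median log2 fold change of 0.10, with 13 above 0. Over all tested genes 67.0% were above 0. The median of this list was 0.038 with quantile normalization, 0.046 with median ratio scaling and 0.041 without shRor1 3. TAOK3 was the most abundant at 60.4 ± 4.67 TPM in shCTL and 66.8 ± 6.79 TPM in shRor1 (SD, n = 3 each). For the 7 MAP4K genes, whose products act on MAP3Ks, the median was also 0.10, but -0.024 without shRor1 3, and MAP4K5 had the highest level. Among the 5 genes for partners of TAK1 and TRAF adaptors it was 0.047, and TAB2 led at 46.2 ± 3.16 and 50.4 ± 4.32 TPM (SD, n = 3 each). Wnt-to-JNK links, such as the Dishevelled genes, had a median of -0.010 over 8 tested genes, and VANGL2, a planar cell polarity gene, was below 1 TPM throughout. Of the other scaffolds MAPK8IP2, which encodes JIP2, was below 1 TPM as well, and the 5 tested ones had a median of -0.030, with CRKL at the highest level.

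Downstream, the 11 genes for JNK substrates had a median log2 fold change of 0.043, which was below 0 without shCTL 1 (-0.0075) or shRor1 3 (-0.022). Paxillin, PXN, a focal adhesion protein, was the most abundant at 157 ± 21.8 TPM in shCTL and 148 ± 23.0 TPM in shRor1, and JUN, the namesake substrate, had 61.6 ± 5.04 and 63.5 ± 5.95 TPM (SD, n = 3 for each). The interval of the log2 fold change of JUN, 0.043, was -0.18 to 0.27 (adjusted p = 0.986 from limma). The list of JNK phosphatases gave 5 tested genes with a median of 0.042, which was below 0 without shCTL 2 (-0.066) or shRor1 3 (-0.042). DUSP4 was the most abundant of them, with 76.7, 83.5 and 103 TPM in shCTL and 82.5, 108 and 124 TPM in shRor1, overlapping groups and a log2 fold change of 0.24 (standard error 0.17, adjusted p = 0.984 from limma). DUSP19 was below 1 TPM in all libraries, and DUSP8 did not pass the filter. With GC content removed, the medians of the TAK1 partners, the phosphatases and the substrates lay below 0.

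**Figure D5:**
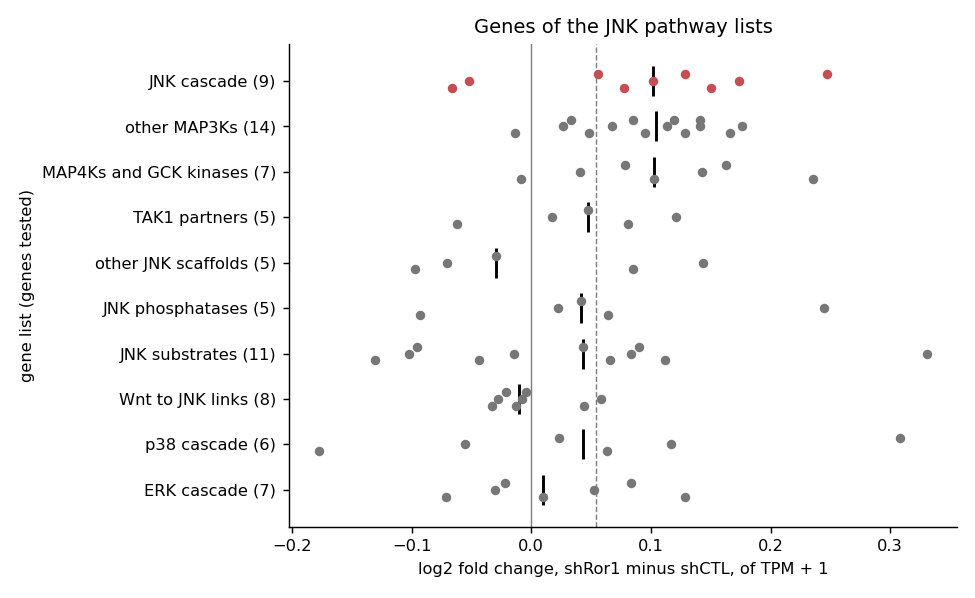
Log2 fold change of shRor1 against shCTL on the log2(TPM + 1) scale for each tested gene of the cascade (red) and of the 9 surrounding lists (grey), with black ticks at the list medians and a dashed line at the median of all tested genes. List medians lie between -0.030 and 0.10, and no single gene passed the adjusted threshold.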

How the data were processed

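Single reads of 50 bases were obtained from 6 MDA-MB231 libraries. Mapping by the authors was to GRCh37 with STAR, and gene abundances were estimated with RSEM (version 1.2.5 per the submitters' processing notes). The deposited values are TPM in each library, in spite of a file name that speaks of counts. TPM keeps no depth, so counting error cannot be given, and values are relative to the other genes of a library. A gene was kept if 3 or more libraries reached 1 TPM (16554 of 57445), and limma 3.58.1 (R 4.3.3) was run on log2(TPM + 1), with a mean-variance trend, the condition as the only term and Benjamini-Hochberg adjustment at 0.05. Fold changes on this scale understate those of low genes. The fit was tested on simulated data. For single values, sums and shares, an exact two-sided permutation test was computed in scipy 1.17.1. Symbols matched 55022 identifiers. Positions, exon overlaps, shared windows and GC content came from GENCODE 44 mapped to GRCh37, for the canonical transcript, and alignments from Biopython 1.88. The genes named are the 10 members, ROR1, identifiers that share exons, reads or a name with a member, kinases set beside the JNK genes, and of each list the most abundant gene, those below 1 TPM and those at an unadjusted p below 0.05. Genes outside this rule are marked as named after their values were seen, and JUN and DUSP8 are such genes too. Some results under this rule are not reported here. The members and lists were chosen with earlier results of these data known. Alternatives were other filters, pseudocounts, scalings, empirical Bayes settings, weights, each library left out, and, added after the data were seen, removal of GC content in 20 bins.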

Additional observations from a re-analysis of the deposited data

How the results depend on the processing

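No paired analysis was possible because each condition's columns share 1 header, without the numbers given in the sample titles. No member was called under any of the 16 alternative fits. Over all genes 0 were called in each, except without shRor1 3, where 1 was (0 to 1 over the fits that each left out 1 library). It was the pseudogene RPL39P3, named after its values were seen (log2 fold change -5.37, adjusted p = 8.95e-06 from limma, against 0.984 with all libraries). Genes at an unadjusted p below 0.05 numbered 472, against 1363 without a filter, 227 at a mean of at least 5 TPM, 859 with array weights, 314 with GC content removed, and 275 (without shCTL 2) to 1692 (without shRor1 1) with 1 library left out. The first pair tests more or fewer genes, and for the others the cause was not tested. With a negative binomial fit in edgeR, the paper called a low number of genes between these conditions, none of them a member. The difference between that fit and limma on TPM was not tested.

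MAP2K4, MAP3K1, MAP3K7, MAP3K11, SPAG9 and ROR1 kept their direction in all 16 fits, but not their size. With 1 library left out MAP2K4 ran from 0.043 (without shCTL 3) to 0.15, MAP3K1 from 0.035 (without shRor1 3) to 0.23, MAP3K7 from 0.071 (without shRor1 2) to 0.30, MAP3K11 from -0.11 to -0.024 (without shRor1 2) and ROR1 from -0.58 to -0.26 (without shCTL 3), and MAP2K4 was 0.021 with GC content removed. MAPK9 turned to -0.0045 with median ratio scaling and -0.0072 with GC content removed. With 1 library left out, log2 fold changes ran from -0.093 to 0.0016 for MAPK8 and from -0.0031 to 0.14 for MAPK9 (both turned without shRor1 2), from -0.0022 (without shCTL 2) to 0.19 for MAP2K7 and from -0.021 (without shRor1 3) to 0.38 for MAPK8IP3. The difference in summed TPM, shRor1 minus shCTL, ran from -3.44 to 0.937 for the JNK genes (above 0 without shCTL 1 or shRor1 2) and was -7.71 with median ratio scaling, and for the MAP3K genes it was 2.47 and turned to -0.448 with median ratio scaling. Differences in share ran from -2.66 to 2.68 percentage points for MAP2K4 and from -1.28 to 3.30 for SPAG9 (both below 0 without shCTL 3 or shRor1 2).

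The median of the 9 tested members was 0.10 and became 0.043 with median ratio scaling, and 0.035 (without shRor1 3) to 0.17 (without shCTL 3) with 1 library left out. The median of the TAK1 partners was -0.048 with quantile normalization and -0.0062 with GC content removed, which also put those of the phosphatases (-0.0070) and the substrates (-0.0063) below 0. Median ratio scaling put both of these below 0 as well (-0.012 and -0.017), and quantile normalization the phosphatases (-0.037). That of the other scaffolds was -0.12 with quantile normalization, -0.079 with median ratio scaling, -0.073 with GC content removed and -0.050 to 0.062 with 1 library left out, and that of the Wnt-to-JNK links was -0.070 with median ratio scaling and -0.073 with GC content removed. Quantile and median ratio scaling moved the median of all genes from 0.054 to 0.0015 and 0.00056, less than the quantile shifts of the TAK1 partners and the other scaffolds, and the cause of these was not tested. TPM holds no depth, so MAPK10 and the other genes below 1 TPM carry a counting error that cannot be given.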

Other observations

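Some genes of the surrounding lists were high and low in the same libraries as MAPK8IP3, and they were picked after their values were seen. The kinase MINK1 had 34.4, 30.3 and 47.5 TPM in shCTL and 39.1, 29.1 and 51.4 TPM in shRor1, and MAPK3, which encodes ERK1, had 30.1, 28.8 and 45.0 TPM in shCTL and 31.3, 30.7 and 48.4 TPM in shRor1. Both were highest in shRor1 3 and next in shCTL 3, as MAPK8IP3 was. Their transcripts had 61.2% and 61.0% GC. MAP3K12, which encodes the dual leucine zipper kinase, followed the same 2 libraries at 53.5% GC, with 14.2 TPM in shCTL 3 and 16.8 TPM in shRor1 3 against 7.83 to 10.3 TPM in the other 4. Not all GC-rich genes of the lists did so. TRAF2 (61.3% GC) and DVL1 (67.5% GC), also picked after their values were seen, were lowest in shRor1 3, at 26.0 and 44.3 TPM. The highest value of 5 of the 10 members was in shRor1 3, and none had its lowest value there. No such count was made over all genes. The factor of median ratio scaling was also largest for shRor1 3, at 1.07 against 0.953 to 1.02 for the other libraries. Genes in general thus ran high in this library on the deposited scale.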
